A study of Mus musculus with 10 samples.

Results

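The comparison described here is the difference between a pair of mouse myeloid cell lines in how their RNA changed over 72 h without IL-3. It is the change in Y577F cells (72 h minus 0 h) minus the change in FI-Delta cells, and it was estimated from all 10 arrays of the series. FDB1 is a mouse myeloid progenitor line that depends on added cytokine. FI-Delta cells express a constitutively active mutant of the common beta chain, the subunit shared by receptors for GM-CSF and related cytokines. The second line, Y577F cells below, expresses FI-Delta Y577F, in which phenylalanine replaces a tyrosine of that mutant. The groups were FI-Delta cells at 0 h, FI-Delta cells at 72 h, Y577F cells at 0 h and Y577F cells at 72 h. Both lines were grown in IL-3 until 0 h, then washed and kept without factor, and no RNA came from cells kept in IL-3 for 72 h, so removal of the factor, the washes and the time spent in culture cannot be told apart. The sample numbers in the labels were read as numbers of cultures, which gives 2 cultures per line. Each mutant is represented by 1 line.

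The common beta chain carries tyrosines that are phosphorylated when the receptor is active, and these dock adaptor proteins and STAT5 that lead to the ERK, PI3 kinase and JAK/STAT pathways. FDB1 cells multiply in IL-3 and mature into granulocytes and macrophages in GM-CSF. Granulocytes make their granule proteins in waves, primary granules first and secondary and tertiary granules later, while macrophages and dendritic cells are known for lysosomal proteases, chemokine receptors and MHC class II molecules. Dividing cells need cholesterol, amino acids, DNA replication and mitosis proteins.

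RNA was compared in pairs on two-colour spotted oligonucleotide arrays. The 72 h and 0 h RNA of a line met on 3 arrays for FI-Delta cells and on 2 for Y577F cells. By the sample numbers in the labels, FI-Delta time arrays 1 and 2 held the same pair of RNAs with the dyes exchanged. The lines met on 3 arrays at 0 h and 2 at 72 h. All values are log2 ratios, turned so that the time arrays give 72 h over 0 h and the line arrays give Y577F over FI-Delta. A positive difference, written "higher", therefore means a larger rise or a smaller fall in Y577F cells, and a negative one, written "lower", the reverse. The labels do not state which dye is the numerator. Cy5 over Cy3 is likely, and the opposite would turn every direction below. Values given with ± are estimates with the standard error of 1 limma model, and the median standard error of the difference was 0.112. A feature is a gene, or a probe without a single gene symbol, and 20243 were tested. A feature is called at a Benjamini-Hochberg adjusted p under 0.05 over all of them. Ratios carry no absolute level, so the lines could not be checked against the levels of cell type markers, and Csf2rb, the gene of the common beta chain, had no feature under that symbol.

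The difference between the lines was called in 1871 features, which is 9.24% of those tested. It was higher in Y577F cells in 877 (4.33%) and lower in 994 (4.91%), and 184 differed by at least 2-fold, 113 of them higher and 71 lower. The Y577F change was the larger in size in 1336 of the 1871 and the FI-Delta change in 535. By the calls in each line, 41 features changed in opposite directions (0.203% of all features). In 992 the change was called in Y577F cells alone (18.0% of all features were called in that line, 9.28% rising and 8.75% falling), in 287 it was called in FI-Delta cells alone (8.16% of all features were called there, 5.19% rising and 2.97% falling), in 276 it was called in both lines in the same direction, and in 275 it was called in neither line. A change called in 1 line alone does not show that the other line stayed constant. Of features called in Y577F cells alone, 476 were higher and 516 lower, and the FI-Delta change was smaller than 0.2 in size in 322 and 402 of them. The lines differed at 72 h and not at 0 h in 1365 of the 1871, and at 0 h and not at 72 h in 36 (12.9% and 1.42% of all features were called at 72 h and at 0 h). In 1481 of the 1871 the values of the lines did not overlap, against 11.9% of all features. That is, the time arrays of Y577F cells lay all above or all below those of FI-Delta cells, and the 72 h line arrays lay likewise beside the 0 h line arrays. The 1871 were selected on these same arrays, so their lack of overlap is a description and no separate support, here and for single genes below. FI-Delta time arrays 1 and 2, the dye exchange, were counted as separate values.

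These counts depended on single arrays. Without array 1 of the lines at 0 h 951 features were called, and without array 2 of the lines at 72 h 911. The count higher in Y577F cells was 456, 462 and 582 without array 1 at 0 h, array 2 at 72 h and FI-Delta time array 3, and the count lower was 495 and 449 without array 1 at 0 h and array 2 at 72 h. Leaving out Y577F time array 1 gave 15 opposite changes, and leaving out FI-Delta time array 3 gave 23. Those called in Y577F cells alone numbered 548, 515 and 583 without array 1 at 0 h, array 2 at 72 h and Y577F time array 1. Those called in FI-Delta cells alone numbered 139, 161 and 165 without array 1 at 0 h, array 2 at 72 h and FI-Delta time array 3. Features called in both lines in the same direction numbered 161, 154 and 154 without those same arrays, and those called in neither line 72, 44 and 162 without array 1 at 0 h, array 2 at 72 h and array 1 at 72 h. The p-values treat arrays as independent, although several appear to share an RNA extract. Which arrays share one was read from the sample numbers in the labels, and with a term for each extract so read 440 features were called. That fit also had no dye term and spread 9 hybridisations over 8 extracts, and which of these lowered the count was not tested.

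**Figure D1:**
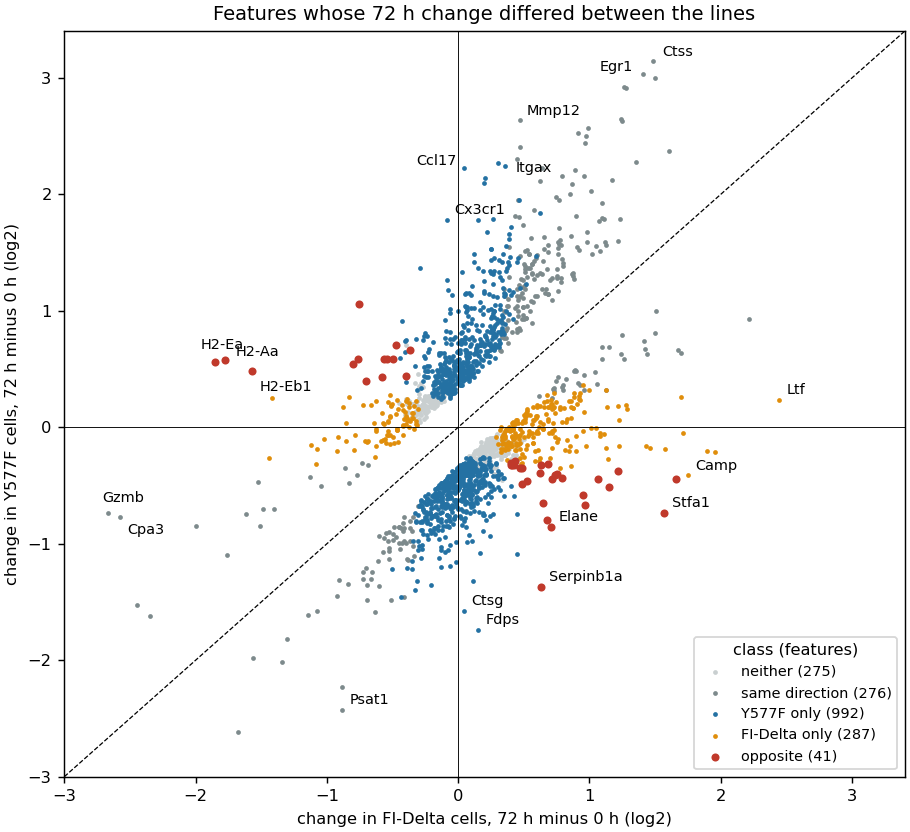
Each point is 1 of the 1871 features called in the difference between the lines. The x axis is the change in FI-Delta cells and the y axis the change in Y577F cells (both 72 h minus 0 h, log2, from the model), colour gives the class and the dashed line marks equal change. The 41 opposite features lie in the upper left (MHC class II genes H2-Ea, H2-Aa and H2-Eb1) and lower right (Serpinb1a, Elane, Stfa1), and the 992 called in Y577F cells alone lie along the vertical axis.

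Of 12 MHC class II genes, 5 fell in FI-Delta cells and rose in Y577F cells, while 0.203% of all features changed in opposite directions. H2-Aa, which encodes the alpha chain of the I-A molecule that presents peptides to helper T cells, fell in FI-Delta cells and rose in Y577F cells. H2-Aa was at -1.38, -2.30 and -1.66 on the 3 FI-Delta time arrays and at 0.70 and 0.51 on the 2 Y577F time arrays. On the line arrays, Y577F over FI-Delta RNA of H2-Aa was at 0.54, 0.91 and 0.72 at 0 h and at 2.75 and 3.25 at 72 h. The values of the lines did not overlap in either set, and Y577F cells already had more H2-Aa RNA at 0 h. The change was -1.78 ± 0.10 in FI-Delta cells and 0.58 ± 0.10 in Y577F cells, a difference of 2.36 ± 0.12 or 5.12-fold (adjusted p = 2.8e-06), and the gene's 2 probes gave 2.47 and 2.24. H2-Ea, the alpha chain of I-E, changed by -1.85 ± 0.15 and 0.56 ± 0.14 in FI-Delta and Y577F cells, and its difference of 2.41 ± 0.16 was the largest positive one among the genes called. H2-Eb1, the beta chain of I-E, changed by -1.57 ± 0.13 and 0.48 ± 0.13. H2-Ab1, the beta chain of I-A, fell in FI-Delta cells (-1.42 ± 0.10), and its Y577F change of 0.25 (95% interval 0.04 to 0.46) was not called.

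In all, 9 class II genes were called higher in Y577F cells, none lower and 3 did not pass, against 4.33% of all features higher, and the median difference was 1.02 against 0.0126 over all features. Of the 9, 5 were opposite, 3 called in FI-Delta cells alone and 1 in Y577F cells alone. Over the 12 measured, the values of the lines did not overlap in 8, against 11.9% of all features. Helper molecules of peptide loading were among the 9. H2-DMb1 changed by -0.36 ± 0.10 in FI-Delta and 0.67 ± 0.09 in Y577F cells, and H2-Oa, a subunit of the H2-O regulator of H2-DM, by -0.58 ± 0.08 and 0.43 ± 0.08. H2-DMa rose in Y577F cells (1.15 ± 0.11), and its FI-Delta change of 0.20 (95% interval -0.05 to 0.44) was not called. Cd74, the invariant chain that escorts class II molecules, fell in FI-Delta cells (-0.83 ± 0.11). Ciita, the master activator of class II transcription, did not pass in the difference (0.36, 95% interval -0.06 to 0.77, adjusted p = 0.28). Nor did H2-DMb2 (0.30, 95% interval 0.06 to 0.54) or H2-Eb2 (-0.02, 95% interval -0.25 to 0.22). Probes for class II genes may detect related members of the family.

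Promoters of class II genes hold short conserved elements bound by a shared protein complex. The 250 bases before the start of 3 genes that changed in opposite directions are shown 5′ to 3′ on the gene's strand. Matches to CTGATTGG (a form of the Y box) and TGACGTCA (a form of the X2 box) are in capitals. These 3 are the opposite class II genes whose windows held CTGATTGG. H2-Ea and H2-DMb1, also opposite, held no such match or were not in the promoter table, so the choice does not show that genes moving together share it. They are from RefSeq, build GRCm38.p6, at chr17:34287824-34288073 (H2-Aa, minus strand), chr17:34305617-34305866 (H2-Eb1, plus strand) and chr17:34092129-34092378 (H2-Oa, plus strand).
H2-Aa: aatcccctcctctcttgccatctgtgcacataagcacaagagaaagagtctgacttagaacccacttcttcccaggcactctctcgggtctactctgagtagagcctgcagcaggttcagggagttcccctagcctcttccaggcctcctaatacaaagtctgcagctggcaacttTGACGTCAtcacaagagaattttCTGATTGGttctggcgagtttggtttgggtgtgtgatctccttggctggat
H2-Eb1: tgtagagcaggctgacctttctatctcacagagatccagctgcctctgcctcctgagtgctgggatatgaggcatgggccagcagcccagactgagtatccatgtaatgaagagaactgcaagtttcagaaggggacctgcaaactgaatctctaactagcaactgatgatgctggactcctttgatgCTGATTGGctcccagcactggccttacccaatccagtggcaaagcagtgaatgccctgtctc
H2-Oa: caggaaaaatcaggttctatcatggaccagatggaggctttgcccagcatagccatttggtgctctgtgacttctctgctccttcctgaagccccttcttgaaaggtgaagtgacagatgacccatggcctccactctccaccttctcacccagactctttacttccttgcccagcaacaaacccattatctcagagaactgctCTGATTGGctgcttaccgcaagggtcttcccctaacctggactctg
The table held 8 of the 12 class II genes. On either strand CTGATTGG was in the window of 4 of them, the 3 shown and H2-Eb2, and in 3.83% of all 32851 windows of this length. TGACGTCA was in the window of H2-Aa and in 1.55% of all windows. The letters were chosen after the windows had been read, and H2-Eb2 holds a match although its difference did not pass. A match is a description of the sequence.

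**Figure D2:**
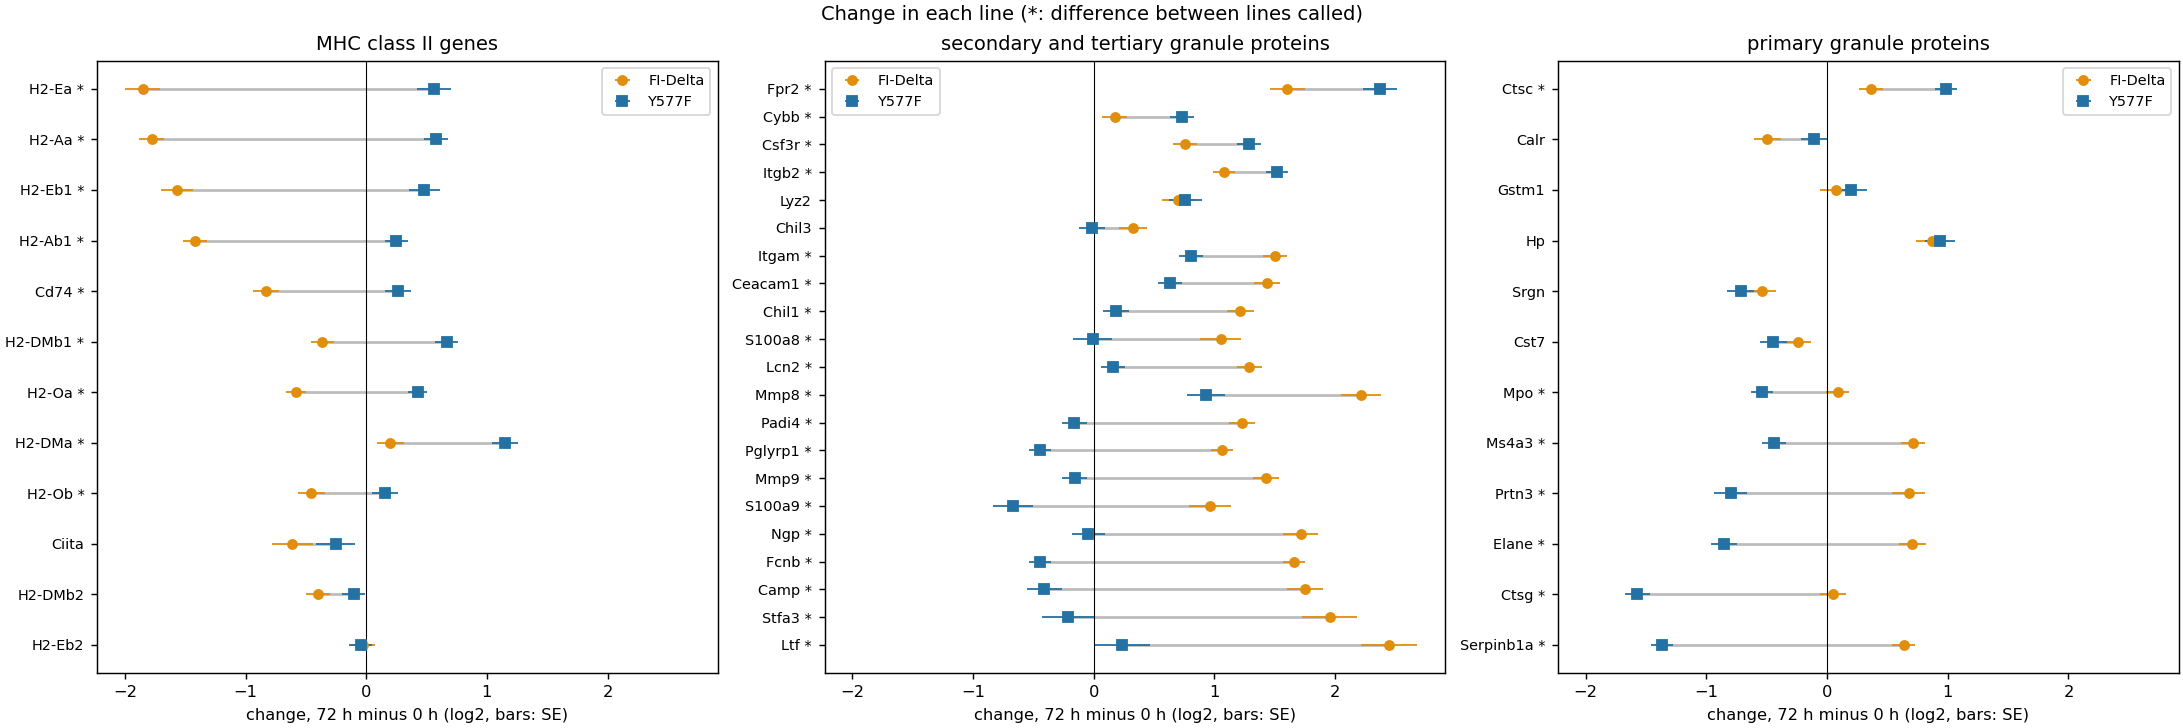
Change over 72 h in FI-Delta cells (circles) and Y577F cells (squares), in log2 with bars of 1 standard error. Every measured gene of the MHC class II, secondary and tertiary granule (with other neutrophil genes) and primary granule lists is shown. An asterisk marks genes called in the difference. For most class II genes the squares lie to the right, with H2-Aa at -1.78 and 0.58, and for most granule genes they lie to the left, with Camp at 1.75 and -0.41.

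The list of secondary and tertiary granule proteins also holds other neutrophil genes, such as S100a8, S100a9, Stfa3 and Csf3r. Most of its genes (15 of 21) rose further in FI-Delta cells than in Y577F cells, or rose there alone. Ltf, which encodes the iron-binding granule protein lactoferrin, was at 2.85, 2.40 and 2.80 on the FI-Delta time arrays and at -0.09 and 0.05 on the Y577F time arrays. The line arrays for Ltf read -1.53, -2.03 and -0.77 at 0 h and -3.03 and -3.42 at 72 h, so Y577F cells had less Ltf RNA at both times and the gap widened. Its change was 2.45 ± 0.23 in FI-Delta cells, the Y577F change of 0.24 (95% interval -0.25 to 0.73) was not called, and the difference was -2.21 ± 0.26 (adjusted p = 0.00034). Camp, the gene of the antimicrobial peptide cathelicidin, was at 1.88, 1.43 and 1.72 on the FI-Delta and at -0.36 and -0.37 on the Y577F time arrays. The values of the lines did not overlap for Camp, whose difference was -2.16 ± 0.17, and its Y577F change of -0.41 (95% interval -0.73 to -0.09) was not called. Fcnb, the gene of the granule lectin ficolin B, changed in opposite directions, by 1.66 ± 0.09 and -0.44 ± 0.09 in FI-Delta and Y577F cells. Its FI-Delta time arrays read 1.27, 1.88 and 1.51 and its Y577F time arrays -0.37 and -0.35.

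Among the 21 genes of the secondary and tertiary granule list, 15 were called lower in Y577F cells, 4 higher and 2 did not pass. The shares over all features were 4.91% lower and 4.33% higher, and the median difference of the list was -1.13. The 15 included 9 called in FI-Delta cells alone, 3 opposite and 3 that rose in both lines. Ngp (-1.76 ± 0.16), Mmp9, which encodes gelatinase B (-1.59 ± 0.12), and S100a8, a calcium-binding protein of neutrophils (-1.06 ± 0.19), rose in FI-Delta cells alone. S100a9, the partner of S100a8, changed by 0.96 ± 0.18 and -0.67 ± 0.17, and Pglyrp1, a bactericidal protein that binds peptidoglycan, by 1.06 ± 0.09 and -0.44 ± 0.09. Mmp8, neutrophil collagenase, rose in both lines, less in Y577F cells (2.21 ± 0.17 and 0.93 ± 0.16). The 4 higher genes were Fpr2 (0.77) and Csf3r (0.53), receptors for formylated peptides and G-CSF, Itgb2 (0.43), an integrin chain, and Cybb (0.56), the oxidase subunit gp91-phox, all of which macrophages also express. Of genes called higher, 2 were called without array 1 of the lines at 0 h and 0 without array 2 of the lines at 72 h. The time arrays only gave 9 called lower.

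The primary granule list also holds genes of other proteins, such as the inhibitor Serpinb1a and the membrane protein Ms4a3. Among its genes, 6 of 12 were lower in Y577F cells, against 4.91% of all features. Serpinb1a, Elane, Prtn3, Ms4a3 and Ctsg fell there. Serpinb1a, an inhibitor of neutrophil serine proteases, was at 0.57, 0.39 and 0.50 on the FI-Delta time arrays and at -1.09 and -1.50 on the Y577F time arrays. Its line arrays read 0.39, 0.29 and 0.12 at 0 h and -1.65 and -1.98 at 72 h, and the 0 h difference between the lines was not called. The changes were 0.63 ± 0.09 and -1.37 ± 0.09, a difference of -2.00 ± 0.10 or 4.01-fold (adjusted p = 2.9e-06). Elane, the gene of neutrophil elastase, was at 0.68, 1.19 and 0.61 on the FI-Delta and -0.82 and -0.99 on the Y577F time arrays. The values did not overlap, and its difference was -1.56 ± 0.12. Prtn3, proteinase 3, changed by 0.68 ± 0.14 and -0.80 ± 0.13, and Ms4a3, a membrane protein of granulocyte progenitors, by 0.71 ± 0.10 and -0.44 ± 0.10. Ctsg, cathepsin G, fell in Y577F cells (-1.57 ± 0.10), with 0.05 (95% interval -0.19 to 0.28) in FI-Delta cells. Of 12 primary granule genes measured, 6 were called lower in Y577F cells, 1 higher and 5 did not pass, with a median difference of -0.42, and Ctsc, the protease that activates the granule serine proteases, was the one called higher (0.62 ± 0.11), and without array 2 of the lines at 0 h 2 were called higher. In bulk RNA, fewer cells of a type and less RNA per cell cannot be told apart.

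The other opposite genes fell on both sides. In addition to class II genes, Ptger4, a prostaglandin E2 receptor (-0.47 ± 0.10 and 0.71 ± 0.10 in FI-Delta and Y577F cells), Kcna3, a voltage-gated potassium channel (-0.70 ± 0.11 and 0.40 ± 0.11), Slc24a3, Zmiz2, Zfp385a and Itih4 fell in FI-Delta and rose in Y577F cells, with differences between 0.84 and 1.18. In the reverse direction, Stfa1, a stefin A cysteine protease inhibitor, changed by 1.57 ± 0.20 and -0.73 ± 0.19. Its probe may also detect relatives such as Stfa3, whose difference was -2.17 ± 0.25. Lipg, endothelial lipase, changed by 1.22 ± 0.11 and -0.38 ± 0.10, and its 2 probes gave differences of -1.01 and -2.19. Jdp2, a repressor that binds AP-1 sites, was at 0.52, 0.50 and 0.79 on the FI-Delta and -0.84 and -0.40 on the Y577F time arrays, with no overlap and a difference of -1.30 ± 0.11. Anxa3, a neutrophil annexin (-1.22 ± 0.08), Septin5, a septin of secretory cells (-1.53 ± 0.15), Golim4 (-1.15 ± 0.10) and Ceacam10 (-1.15 ± 0.10) followed the same pattern. Leaving out each of the 10 arrays in turn, Anxa3, Elane, Fcnb, Jdp2, Prtn3 and Serpinb1a stayed opposite in all 10 fits. H2-Aa and H2-Ea stayed opposite in 9, H2-Eb1 in 7, Stfa1 in 8, Lipg in 5 and H2-DMb1 in 2. Of the 41, 14 remained opposite when Y577F time array 1 was left out and 22 when FI-Delta time array 3 was.

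Several of the largest differences were in genes that rose in Y577F cells alone. Itgax, the integrin chain CD11c, was at 0.59, 0.80 and 0.24 on the FI-Delta time arrays and at 2.14 and 2.04 on the Y577F time arrays. The line arrays for Itgax were near 0 at 0 h (-0.03, 0.27 and 0.10) and stood at 2.58 and 1.97 at 72 h, with no overlap in either set. Its Y577F change was 2.24 ± 0.14, the FI-Delta change of 0.36 (95% interval 0.04 to 0.68) was not called, and the difference was 1.88 ± 0.16 (adjusted p = 4.7e-05). Cx3cr1, the fractalkine receptor of monocytes, was at -0.15, 0.22 and -0.09 on the FI-Delta and 1.82 and 1.65 on the Y577F time arrays. The line arrays of Cx3cr1 read 0.07, 0.14 and -0.10 at 0 h and 1.77 and 2.19 at 72 h, so its difference of 1.87 ± 0.12 lay almost wholly at 72 h. Ccl17, a chemokine that draws T cells through CCR4, was at -0.06, 0.10 and 0.14 on the FI-Delta and 1.84 and 2.58 on the Y577F time arrays. Ccl17 also differed between the lines at 0 h (1.42, 0.79 and 1.32 on the line arrays, 3.32 and 3.39 at 72 h), and its difference was 2.18 ± 0.17. Rassf4 (1.93 ± 0.15), a Ras association domain protein, Adgre4 (1.97 ± 0.18), an adhesion receptor of myeloid cells, Ms4a6b (1.91 ± 0.14) and Gpnmb (1.49 ± 0.16), a glycoprotein of macrophages, were also called in Y577F cells alone.

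**Figure D3:**
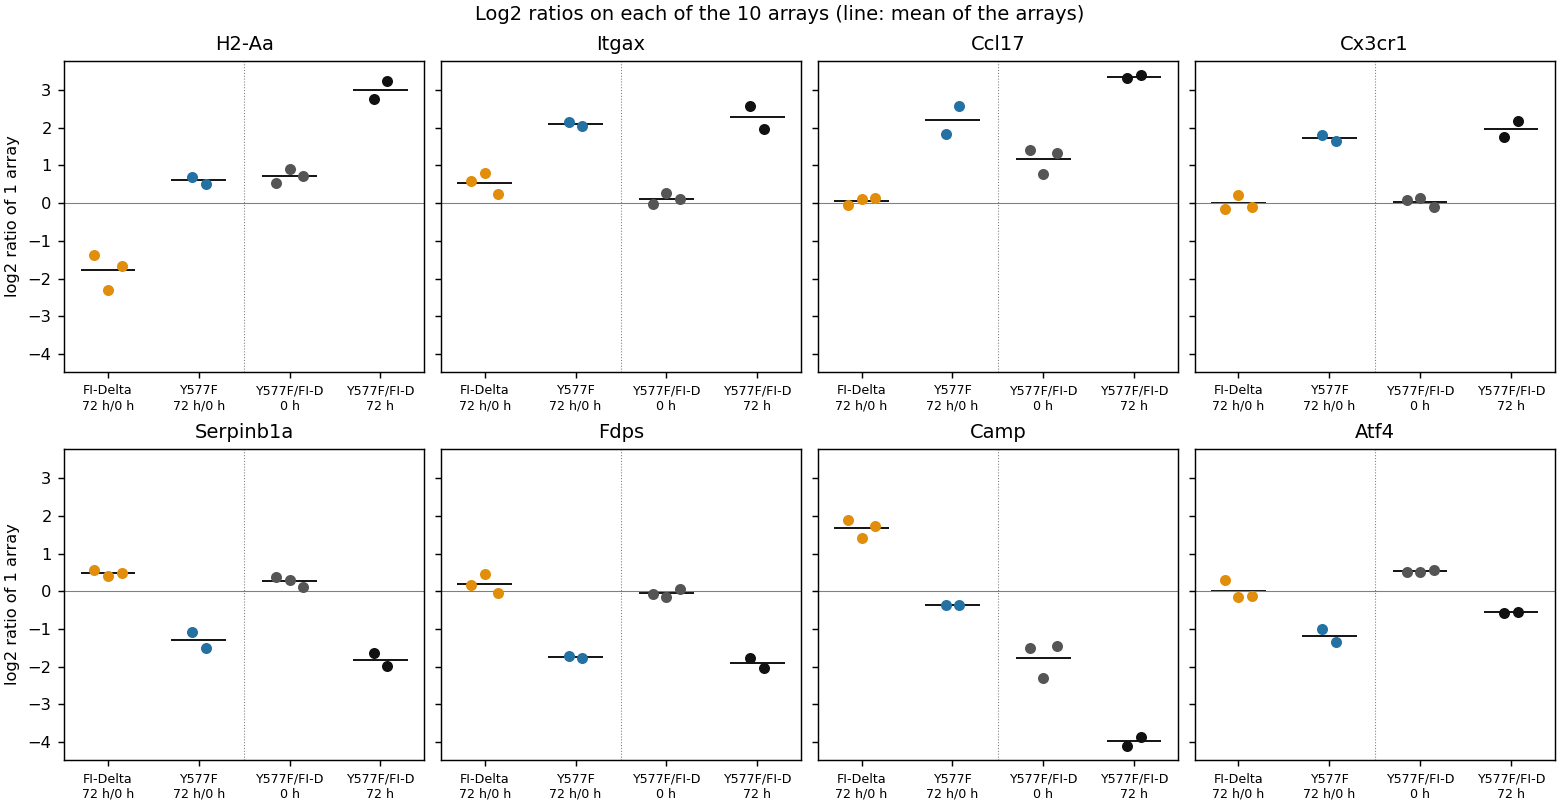
Log2 ratios on each of the 10 arrays for 8 genes, with FI-Delta time arrays (3), Y577F time arrays (2), line arrays at 0 h (3) and line arrays at 72 h (2) from left to right in each panel. Points are arrays and horizontal lines their means. H2-Aa fell on the FI-Delta (-1.38 to -2.30) and rose on the Y577F time arrays (0.70 and 0.51), Itgax, Ccl17 and Cx3cr1 rose on the Y577F time arrays, and Serpinb1a, Fdps and Atf4 fell on them, while Camp rose on the FI-Delta time arrays.

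Of 29 monocyte and macrophage markers, 17 were called higher in Y577F cells, none lower and 12 did not pass, with a median difference of 0.54. The shares over all features were 4.33% higher and 4.91% lower. Most of the 17 (12) rose in both lines and further in Y577F cells, such as the protease genes Mmp12 (2.16 ± 0.12) and Ctss (1.66 ± 0.11) and the chemokine receptor gene Ccr2 (1.61 ± 0.17), 4 were called in Y577F cells alone and 1 in neither line. Macrophage genes of the list were found both among the called genes and among those that did not pass. Cd68 (1.23), Trem2 (0.94) and Mpeg1 (0.92) were among the 17 called higher, and each rose in both lines. Among the 12 that did not pass were Adgre1 (F4/80) at 0.16 (95% interval -0.04 to 0.36) and C1qa, a complement subunit, at -0.08 (95% interval -0.32 to 0.16). The dendritic cell list gave 3 of 14 measured genes called higher, namely Itgax, Irf8 (0.84 ± 0.09), a transcription factor of monocytes and dendritic cells, and Batf3 (0.54 ± 0.14), and a median difference of 0.09. Batf3 lost its call without array 1 at 0 h, without either 72 h array or without Y577F time array 2. Zbtb46 and Flt3, both used to define dendritic cells, did not pass, at 0.11 (95% interval -0.12 to 0.34) and 0.05 (95% interval -0.16 to 0.27). Of the 29 macrophage markers, 10 were called higher from the time arrays only, and likewise with a term for each RNA extract.

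Markers of other blood cells were called in both directions, beside shares of 4.33% higher and 4.91% lower over all features. Among 18 mast cell and basophil markers, 5 were called higher and 2 lower. Cpa3, mast cell carboxypeptidase, was at -2.76, -2.55 and -2.50 on the FI-Delta and -0.66 and -0.81 on the Y577F time arrays. It fell in both lines and less in Y577F cells, and its difference of 1.80 ± 0.12 and that of the protease gene Gzmb (1.93 ± 0.14) were smaller falls, not rises. Fcer1a, the IgE receptor alpha chain, fell in FI-Delta cells alone (-1.44 ± 0.21), and its time arrays overlapped between the lines. Hdc, which makes histamine, fell in Y577F cells alone (-0.72 ± 0.08). Without array 1 at 0 h or array 2 at 72 h 1 marker of this list was called lower, and from the time arrays only 2 were called higher and none lower. Of 16 erythroid and megakaryocyte markers, 2 were higher and 3 lower, with Itga2b, a platelet integrin chain, at 1.14 ± 0.12 and Tfrc, the transferrin receptor, at -1.05 ± 0.09. Of 21 lymphoid markers, none was higher and 2 lower, of which Nkg7, a granule protein of killer cells, was at -1.54 ± 0.17. Without array 1 of the lines at 0 h 1 lymphoid marker was called lower, and 1 lymphoid marker was called higher without Y577F time array 1. With a term for each extract 1 erythroid marker was lower. Cd34, a stem and progenitor cell antigen on none of the lists, was at -0.99, -1.49 and -1.06 on the FI-Delta and 0.04 and -0.28 on the Y577F time arrays. The values of the lines did not overlap for Cd34, and its difference was 0.97 ± 0.11.

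Of 20 cholesterol synthesis genes, 12 fell in Y577F cells and 0 in FI-Delta cells, and 7 of those 12 were also called in the difference. Of all features, 8.75% fell in Y577F cells and 2.97% in FI-Delta cells. Fdps, which makes the farnesyl diphosphate from which cholesterol and prenyl groups are built, was at 0.17, 0.45 and -0.05 on the FI-Delta time arrays and at -1.71 and -1.78 on the Y577F time arrays. The line arrays of Fdps were near 0 at 0 h (-0.08, -0.14 and 0.06) and at -1.77 and -2.04 at 72 h, with no overlap. Its Y577F change was -1.74 ± 0.09, the FI-Delta change was 0.15 (95% interval -0.06 to 0.36), and the difference was -1.89 ± 0.11 or 3.70-fold (adjusted p = 5.2e-06). Over the pathway, 8 genes were called lower in Y577F cells, none higher and 12 did not pass, with a median difference of -0.26. The shares over all features were 4.91% lower and 4.33% higher. Of the 8, 7 were called in Y577F cells alone and 1, Sqle, in neither line. Idi1, the isomerase just before Fdps, changed by -1.22 ± 0.12 in Y577F cells, Fdft1, the squalene synthase just after it, changed by -0.66 ± 0.09 and Msmo1, a late sterol oxidase, by -0.74 ± 0.10. Srebf2, the transcription factor of the pathway, and Insig1, which holds it back, did not pass (-0.11, 95% interval -0.35 to 0.12, and -0.02, 95% interval -0.24 to 0.19). After Fdps, the next difference on the list was -0.93 (Msmo1). From the time arrays only, 3 were called lower, and 5 with a term for each RNA extract. Of 16 fatty acid synthesis genes, 2 were lower and none higher, and Scd1, a desaturase, fell in both lines and more in Y577F cells (-1.34 ± 0.14). Without array 2 at 72 h, or without Y577F time array 2, 1 gene of this list was called lower.

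Amino acid response genes were lower in Y577F cells in 18 of 38 cases, against 4.91% of all features. Atf4, the transcription factor that induces amino acid synthesis and transport genes, was at 0.30, -0.16 and -0.12 on the FI-Delta and -1.01 and -1.35 on the Y577F time arrays. On the line arrays Atf4 read 0.50, 0.52 and 0.56 at 0 h and -0.58 and -0.55 at 72 h, so Y577F cells had more of its RNA at 0 h and less at 72 h. Its Y577F change was -1.16 ± 0.09, the FI-Delta change was -0.02 (95% interval -0.21 to 0.18), and the difference was -1.14 ± 0.10 (adjusted p = 5.1e-05). Of the response genes, 18 were called lower, 1 higher and 19 did not pass, with a median difference of -0.41, and 12 of the called genes were called in Y577F cells alone. Asns, asparagine synthetase (-1.06 ± 0.11), Psph, the last enzyme of serine synthesis (-0.98 ± 0.12), Trib3 (-0.68 ± 0.10), and the aminoacyl-tRNA synthetase genes Eprs (-0.56) and Nars (-0.67) were among the 12. Psat1, the serine aminotransferase, fell in both lines and more in Y577F cells (-0.88 ± 0.13 and -2.43 ± 0.12), but Phgdh, the first enzyme of that pathway, did not pass (0.32, 95% interval 0.01 to 0.62). Yars and Lars, further synthetase genes outside the list, were called in Y577F cells alone (-1.15 ± 0.11 and -1.12 ± 0.10). Cebpb, a transcription factor of myeloid maturation that is on this list, was the one called higher (0.68 ± 0.11), and 2 were called higher without array 2 or without array 3 of the lines at 0 h. From the time arrays only 2 were called lower, and 7 with a term for each RNA extract.

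Of 40 mitosis genes, 30 fell in Y577F cells and 0 in FI-Delta cells, and 27 of those 30 were also called in the difference. Of all features, 8.75% fell in Y577F cells and 2.97% in FI-Delta cells. Ube2c, the ubiquitin-conjugating enzyme of the anaphase-promoting complex, was at 0.39, 0.30 and 0.30 on the FI-Delta and -1.07 and -0.63 on the Y577F time arrays. The line arrays of Ube2c read -0.18, -0.10 and -0.13 at 0 h and -1.25 and -0.92 at 72 h. The values did not overlap, and its changes of 0.21 ± 0.09 and -0.79 ± 0.09 differed 2.00-fold (adjusted p = 0.00015). The difference was called lower in those 27, higher in none and did not pass in 13, with a median difference of -0.57. Over all features, 4.91% were lower and 4.33% higher. The median change of the list was -0.43 in Y577F cells and 0.06 in FI-Delta cells. Tpx2, a spindle assembly factor (-0.95 ± 0.11), Mki67, the proliferation antigen Ki-67 (-0.78 ± 0.13), Ccnb2, a B-type cyclin (-0.69 ± 0.12), and Cdk1, its kinase partner (-0.44 ± 0.09), were among them, and Plk1, the polo kinase, did not pass (-0.24, 95% interval -0.45 to -0.03). The time arrays only gave 2 called lower, and 10 were called lower with a term for each RNA extract.

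DNA replication and ribosome genes went the same way with smaller differences. Over all features, 4.33% were higher and 4.91% lower. Of 48 replication genes, 18 were called lower and none higher, with a median of -0.30, among them Rrm2, a subunit of ribonucleotide reductase (-0.92 ± 0.19), and Mcm4, of the replicative helicase (-0.75 ± 0.10). Rrm2 lost its call without array 2 of the lines at 72 h, and without that array 7 of the list were called. Pcna, the polymerase clamp, did not pass (0.04, 95% interval -0.21 to 0.30). No replication gene was called from the time arrays only, and 7 were called with a term for each extract. Of 44 ribosome biogenesis and Myc target genes, 12 were lower and 1 higher, with a median of -0.22. Nop56, a nucleolar protein that guides RNA methylation, was at -1.03 ± 0.16, Myc itself did not pass (-0.29, 95% interval -0.50 to -0.09), and the gene called higher was Prmt1, an arginine methyltransferase (0.78 ± 0.16). Called lower were 7 without array 1 at 0 h, 7 without array 1 at 72 h, 7 without Y577F time array 1, 5 without array 2 at 72 h, 1 with a term for each extract and none from the time arrays only.

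**Figure D4:**
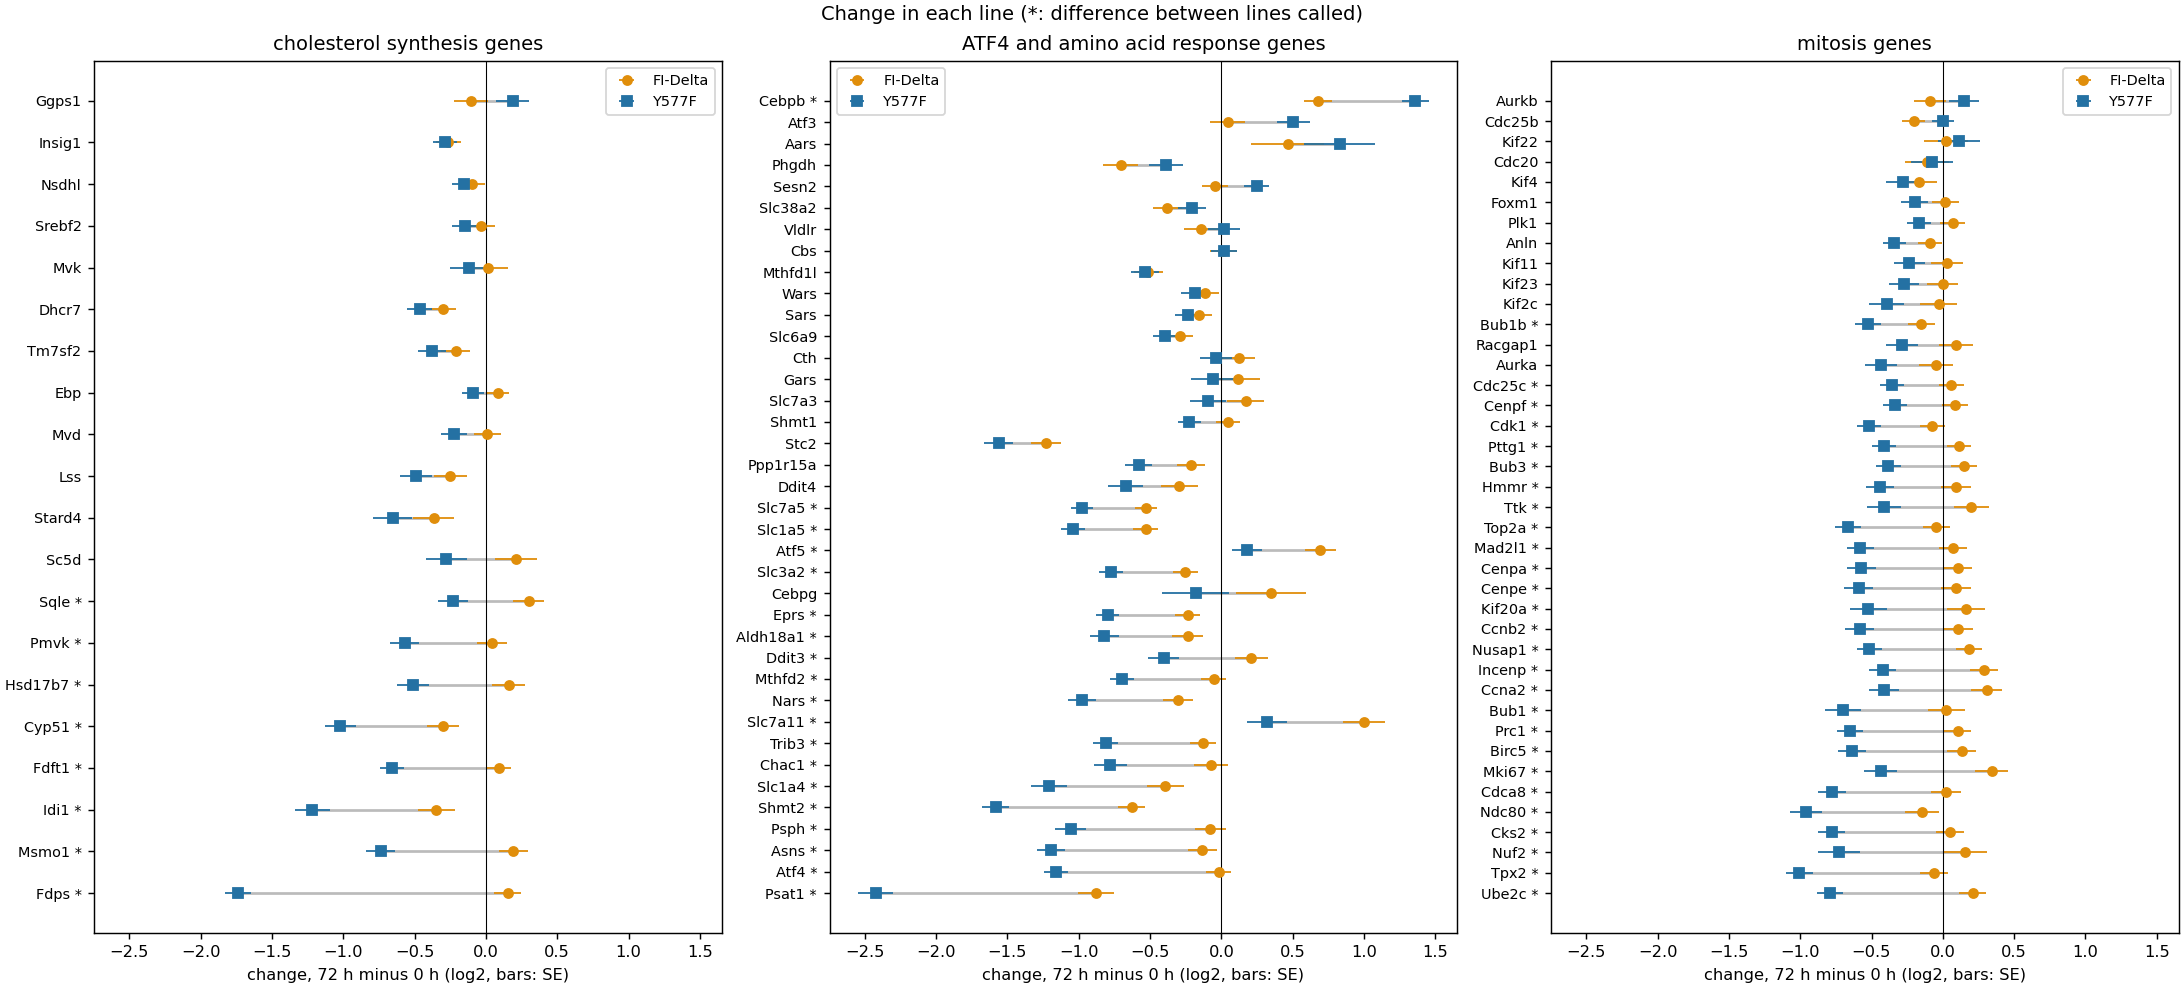
Change over 72 h in FI-Delta cells (circles) and Y577F cells (squares) for every measured gene of cholesterol synthesis, of the ATF4 and amino acid response and of mitosis, in log2 with bars of 1 standard error. An asterisk marks genes called in the difference. Most circles lie near 0 (list median 0.06 for mitosis) and most squares to their left, with Fdps at -1.74 and Atf4 at -1.16 in Y577F cells.

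Of 45 lysosome genes, 20 were called higher in Y577F cells, none lower and 25 did not pass, with a median difference of 0.29. Over all features, 4.33% were higher and 4.91% lower. By class, 9 rose in Y577F cells alone, 9 rose in both lines, 1 was called in neither line and 1, Gnptab, which tags enzymes for the lysosome, fell in FI-Delta cells alone (-0.66 ± 0.10). Ctsa, a lysosomal carboxypeptidase, was at 0.23, 0.30 and 0.29 on the FI-Delta and 1.84 and 1.22 on the Y577F time arrays, without overlap. Its difference was 1.15 ± 0.13, that of Lipa, acid lipase, 1.35 ± 0.11 and that of Psap, the precursor of the saposins, 1.66 ± 0.15. The time arrays only gave 4 called higher, and 9 were called higher with a term for each RNA extract.

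Genes downstream of the receptor gave mixed results. Of 37 ERK and immediate-early genes, 12 were called higher in Y577F cells and none lower, with a median difference of 0.19. Over all features, 4.33% were higher and 4.91% lower. Egr2, a zinc finger factor of macrophage maturation, was at -0.02, 0.38 and 0.20 on the FI-Delta and 1.34 and 0.91 on the Y577F time arrays. The values did not overlap, its difference was 1.11 ± 0.13, and Junb, an AP-1 subunit (0.92 ± 0.11), was likewise called in Y577F cells alone. Egr1 (1.62 ± 0.12), Egr3 (1.59 ± 0.12) and Fos (1.58 ± 0.14) rose in both lines and further in Y577F cells. Among feedback inhibitors of ERK, Dusp6, a phosphatase, and Spry4, a Sprouty protein, did not pass (-0.21, 95% interval -0.44 to 0.02, and -0.26, 95% interval -0.46 to -0.07). The time arrays only gave 5 called higher. Of 17 STAT5 and cytokine feedback genes, 4 were higher and none lower, beside the same shares of all features. Pim1, a survival kinase, was at -0.08, -0.32 and -0.49 on the FI-Delta and 0.44 and 0.35 on the Y577F time arrays. Its Y577F change of 0.39 ± 0.11 was called, its larger FI-Delta change of -0.40 (95% interval -0.65 to -0.15) was not, and the difference was 0.79 ± 0.13. Stat5a, which encodes the transcription factor itself, fell in FI-Delta cells alone (-0.51 ± 0.09), and Cish, its best known feedback target, did not pass (0.18, 95% interval -0.01 to 0.37). Of this list 2 were higher with a term for each extract and 1 from the time arrays only, where Pim1 and Stat5a lost their calls.

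Of 19 components of the GM-CSF receptor pathway, 4 were higher and 1 lower, beside 4.33% and 4.91% of all features. Csf2rb2, the beta chain of the mouse IL-3 receptor, was at -0.41, -0.68 and -0.80 on the FI-Delta and 0.40 and 0.12 on the Y577F time arrays. Its line arrays read 0.48, 0.43 and 0.57 at 0 h and 1.24 and 1.35 at 72 h. It fell in FI-Delta cells (-0.62 ± 0.09), its Y577F change of 0.23 (95% interval 0.03 to 0.42) was not called, and the difference was 0.85 ± 0.10 (adjusted p = 0.00043). Csf2rb2 is a close relative of Csf2rb, so its probe may detect both. Csf2ra, the GM-CSF receptor alpha chain, rose in both lines with a difference of 0.61 ± 0.11, which lost its call with a term for each extract and from the time arrays only. Of genes called higher, 2 were called without array 1 at 0 h, 2 without array 1 at 72 h and 2 without array 2 at 72 h, while the term for each extract left 1 higher and 0 lower and the time arrays only left 0 of either, Csf2rb2 included. Cbl, a ubiquitin ligase that damps receptor signals, was the gene called lower (-0.49 ± 0.10), and it lost its call without array 1 at 0 h.

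Of 27 blood transcription factors, 7 were higher and 2 lower, beside 4.33% and 4.91% of all features. Myb, which keeps progenitors immature, was at -0.18, -0.45 and 0.12 on the FI-Delta and -1.13 and -1.04 on the Y577F time arrays, and its difference was -0.97 ± 0.11. Runx1 fell in FI-Delta cells alone (-0.51 ± 0.11), with a difference of 0.70 ± 0.12. The master regulators of the macrophage and granulocyte lineages, Spi1 and Cebpa, did not pass (0.33, 95% interval 0.09 to 0.58, and 0.35, 95% interval 0.06 to 0.65). Of 25 growth arrest and FoxO genes, 4 were higher and 2 lower, beside the same shares of all features. Gadd45a, a stress and arrest gene, was at 0.80, 0.61 and 0.66 on the FI-Delta and -0.52 and 0.04 on the Y577F time arrays, and it rose in FI-Delta cells alone with a difference of -0.96 ± 0.14. Cdkn1b, the inhibitor p27 of cyclin-dependent kinases, was higher (0.65 ± 0.17) with a call in neither line. With a term for each extract 4 transcription factors were higher and 1 lower, and 2 growth arrest genes higher and 1 lower. The time arrays only gave 2 transcription factors and 1 growth arrest gene higher and 0 of either lower, so Myb and Gadd45a lost their calls there. Of genes higher on this list, 2 were called without array 1 or array 2 of the lines at 0 h, array 2 at 72 h, Y577F time array 1 or FI-Delta time array 3.

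Of 29 chemokine and cytokine genes, 9 were higher and 1 lower, beside 4.33% and 4.91% of all features. Ccl17 had the largest difference, and Csf1, the macrophage growth factor, was at 0.83 ± 0.10. Tnfsf11, the osteoclast factor RANKL, was the gene called lower (-0.94 ± 0.17). Called higher were 5 without array 2 of the lines at 72 h, 5 with the culture block, 2 with a term for each extract and 1 from the time arrays only. Of 27 interferon-stimulated genes, 6 were higher and none lower, with Oas1a, an antiviral synthetase, at 0.57 ± 0.10, and the count depended on the fit. It was 2 with the culture block, 0 with a term for each extract, where Oas1a lost its call, and 0 from the time arrays only. It was 1 without array 1 at 0 h, array 2 at 0 h or array 1 at 72 h, 2 without Y577F time array 2 or FI-Delta time array 3. Without array 3 at 0 h or FI-Delta time array 2 it was 3. Of 27 apoptosis regulators, 4 were higher and none lower, and the 4 rose in both lines, among them the protective gene Mcl1 (0.76 ± 0.12) and the death gene Bcl2l11 (0.72 ± 0.10), and 1 was called lower without FI-Delta time array 1. With a term for each extract 1 was higher and Mcl1 lost its call, and 2 were higher from the time arrays only. Glycolysis (1 of 17 higher and 2 lower), oxidative phosphorylation (1 of 35 and 2) and heat shock and unfolded protein genes (2 of 24 and 2) gave no more than 2 calls in either direction, beside 4.33% and 4.91% over all features. Leaving out single arrays gave 0 to 2 glycolysis genes higher, 0 to 1 oxidative phosphorylation genes higher and 0 to 4 lower, and 0 to 3 heat shock genes in each direction. With a term for each extract 1 glycolysis gene was called lower and 0 genes of these 3 lists otherwise.

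**Figure D5:**
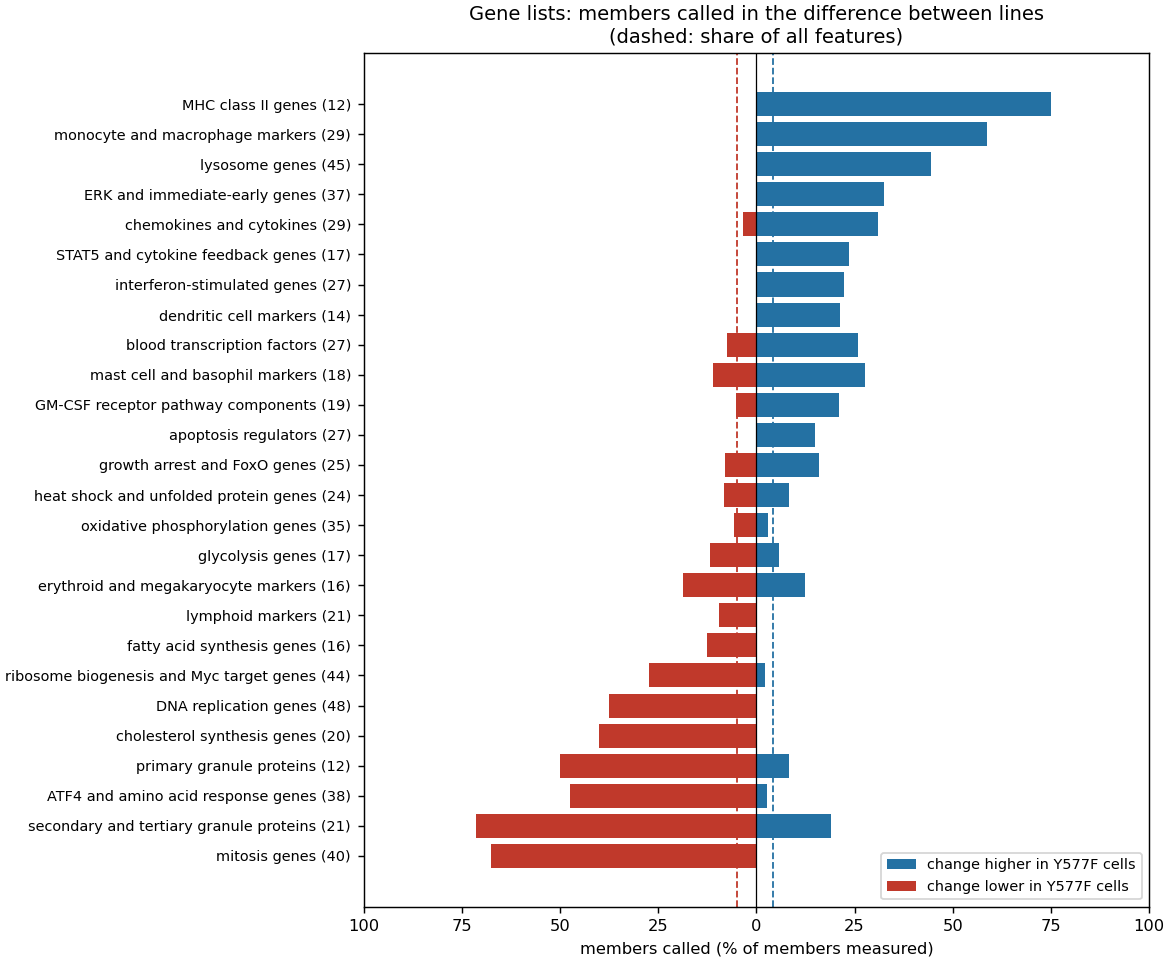
Share of the measured members of each of 26 gene lists that was called higher (right) or lower (left) in the change of Y577F cells, with the number measured after each name. Dashed lines give the shares over all features, 4.33% higher and 4.91% lower. MHC class II genes reach farthest to the right (9 of 12). The secondary and tertiary granule list, which holds other neutrophil genes too (15 of 21), and mitosis genes (27 of 40) reach farthest to the left.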

How the data were processed

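RNA of FDB1 cells carrying FI-Delta or FI-Delta Y577F, at 0 h in IL-3 and after 72 h without factor, was compared on 10 two-colour spotted oligonucleotide arrays. The deposited values are normalized log2 ratios made by the authors with limma, per the submitters' processing notes, which give no version. Base 2 is assumed, no source used here gives the background correction or normalization method, and the ratio is likely Cy5 over Cy3. The array medians lay between -0.0162 and 0.00904 and their standard deviations between 0.232 and 0.371. Precision is limited by how many arrays there are.

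Control spots were left out. Of 21797 probes, 16651 had a single gene symbol in the platform annotation, 137 had several and 5009 none. Probes of a gene were averaged (1050 genes had more than 1), which left 20243 features. One limma model (limma 3.58.1, R 4.3.3) with a direct design, +1 for the Cy5 and -1 for the Cy3 group, and a dye term was fitted to 9 hybridisations. The dye swap, read from the sample numbers in the labels, was averaged. Calls were made at a Benjamini-Hochberg adjusted p under 0.05 over all features, and the script was tested on simulated data. Nothing in the labels ties arrays to separate experiments beyond the 2 sample numbers of each line, and the p-values do not cover differences between clones.

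Alternatives were the model without the dye term, array quality weights, arrays scaled to equal spread, the swap kept as separate arrays, the time arrays only, blocks for culture or RNA extract (extracts read from the same numbers), robust moderation, single probes, an adjusted p under 0.01, and leaving out each array. The fits of the time arrays only and of the RNA extract block had no dye term. Members and gene lists were chosen with earlier results of these data known. Genes named are the largest differences overall and in each class, up to 4 called members of each list, the genes of the comparison's own marker set, and further list members, given for their role after their values were seen. Intervals are 95% intervals of the model. Promoters were matched to RefSeq by symbol.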

Additional observations from a re-analysis of the deposited data

Results flagged for a closer look

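The 2 lines' changes differed, by the test of the difference itself in limma, in 1871 features, of which 41 changed in opposite directions. Among the genes with opposite calls, positive differences (Y577F minus FI-Delta, log2) were measured for the MHC class II genes H2-Ea (2.41), H2-Aa (2.36), H2-Eb1 (2.05), H2-DMb1 (1.03) and H2-Oa (1.01). Positive differences were also measured for the prostaglandin receptor gene Ptger4 (1.18), the channel and exchanger genes Kcna3 (1.10) and Slc24a3 (1.15), and for Zmiz2 (1.13), Zfp385a (1.08) and Itih4 (0.84). Negative differences were measured for the granule and neutrophil genes Fcnb (-2.10), Serpinb1a (-2.00), S100a9 (-1.63), Elane (-1.56), Pglyrp1 (-1.51), Prtn3 (-1.48), Anxa3 (-1.22) and Ms4a3 (-1.15). Stfa1 (-2.30), Lipg (-1.60), Septin5 (-1.53), Jdp2 (-1.30), Golim4 (-1.15) and Ceacam10 (-1.15) had negative differences too. The opposite class itself depended on single arrays. In the 10 fits that each left out 1 array, H2-DMb1 stayed opposite in 2, Itih4, Zmiz2 and Lipg in 5 and Zfp385a in 6. The other genes named here stayed opposite in 7 or more.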

How the results depend on the processing

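None of the 146 features taken through the alternatives, which leave out some genes named for their role, reversed: of 2774 values, 2562 kept their call and 212 lost it, and 79 features were called in every alternative. All 146 were picked among called features by the size of their difference, and the alternatives reused the same arrays. Few reversals were therefore likely from the start, so these counts are a description and no separate support. The count of calls was 1871, and leaving out each array gave 911 to 1861 (456 to 882 higher, 449 to 979 lower). Leaving out each array gave 15 to 41 opposite, 515 to 949 called in Y577F cells alone, 139 to 297 in FI-Delta cells alone, 154 to 271 in the same direction and 44 to 396 in neither line. From the time arrays only, 210 were called, 133 higher and 77 lower, with 13 opposite, 120 in Y577F cells alone, 42 in FI-Delta cells alone, 35 in the same direction and 0 in neither. The share called higher was 46.9% as reported, 63.3% from the time arrays only and 54.3% with a term for each extract. At an adjusted p under 0.01, 797 were called. With array quality weights there were 103 opposite, 544 in FI-Delta cells alone and 532 in the same direction, and with arrays scaled to equal spread 27 opposite.

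The replicate block with a term for each culture gave 1434 calls and 182 in neither line, and it moved no other class by over 1.5 times. The replicate block for each RNA extract, which had no dye term, gave 440, 239 higher and 201 lower. Of these, 10 were opposite, 262 in Y577F cells alone, 80 in FI-Delta cells alone, 60 in the same direction and 28 in neither. In that fit 0 primary granule genes, 0 secondary granule genes and 0 ATF4 genes were higher, 10 macrophage, 3 mast cell and 9 lysosome genes were higher, and 1 mast cell, 5 cholesterol, 10 mitosis, 7 replication, 1 ribosome and 7 ATF4 genes were lower. From the time arrays only, 0 secondary granule, 10 macrophage, 2 mast cell, 0 ribosome, 0 ATF4, 4 lysosome and 5 ERK genes were higher, and 9 secondary granule, 0 mast cell, 3 cholesterol, 2 mitosis, 0 replication, 0 ribosome and 2 ATF4 genes were lower. Array quality weights and the culture block each gave 2 primary granule and 2 ATF4 genes higher, quality weights and single probes each gave 1 lysosome gene lower, and without the dye term 2 secondary granule genes were higher.

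Leaving out each array gave 8 to 10 class II, 2 to 3 dendritic, 1 to 2 primary granule, 0 to 4 secondary granule, 15 to 18 macrophage, 4 to 5 mast cell, 1 to 1 ribosome, 1 to 2 ATF4, 15 to 20 lysosome and 10 to 13 ERK genes higher. It gave 6 to 6 primary granule, 15 to 15 secondary granule, 1 to 2 mast cell, 7 to 9 cholesterol, 20 to 27 mitosis, 7 to 18 replication, 5 to 12 ribosome and 12 to 18 ATF4 genes lower. The cause of these shifts was not tested, and the fits that leave arrays out also hold fewer arrays. The 10 arrays and 2 cultures per line limit which small differences could be called.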
